A study of Mus musculus with 4 samples.

Results

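The genes described here are the ligands and receptors that steer growing axons: class 3 to 7 semaphorins with their plexin and neuropilin receptors, Slit ligands with Robo receptors, netrins with the receptors Dcc, Neo1 and Unc5, and ephrins with Eph receptors. They were chosen by gene symbol alone, with a minimum of 10 counts summed over the libraries. Of 71 gene rows with a matching symbol, 54 reached that minimum, out of 49990 gene rows outside ribosomal RNA. The lowest total among the 54 was 10 counts and the highest among the 17 rows left out was 7 counts, with 3 of the 17 at 0 in every library. RNA was sequenced from the iMOP line, immortalized otic progenitor cells of the mouse, with the genotype given as wild-type. The group labelled neuron had been cultured in Neurobasal medium with L-glutamine and 1 µM K03861, which inhibits CDK2, a kinase that drives the cell cycle. The group labelled proliferating had been cultured in DMEM/F12 with carbenicillin and 20 ng/ml bFGF, a fibroblast growth factor, and both media held the N21 supplement. There were 2 libraries per group, with the numbers 1 and 2. Whether they came from separate cultures or clones, and how long the cells had been in each medium, is not in the labels used here, so p-values measure the spread between these libraries, which may be technical.

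Guidance cues act at the growth cone, the motile tip of an axon, where attraction or repulsion is decided by which receptors the cell displays. Semaphorins bind plexins, and most secreted class 3 semaphorins need a neuropilin as co-receptor. Slits repel through Robo receptors, netrins attract through Dcc and repel when an Unc5 receptor takes part, and membrane-bound ephrins signal to Eph tyrosine kinases on neighbouring cells. In the inner ear, these families are known for sorting the axons of spiral ganglion neurons as they grow towards hair cells.

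Total counts were 27424909 and 8368169 in the neuron libraries and 3150354 and 32913243 in the proliferating libraries, but ribosomal RNA took 88.2% to 98.1% of them, leaving 292302 to 3241915 counts for all other genes. The libraries were more alike by number than by group. Across the 36 tested guidance genes, the Pearson correlation of log2 CPM (counts scaled to a common library size) was 0.79 between neuron 1 and proliferating 1 and 0.77 between neuron 2 and proliferating 2, against 0.59 between the neuron libraries and 0.44 between the proliferating libraries. These are correlations across genes, which are not independent replicates. Results are therefore given between groups and also within each number. The levels of division markers and the summed level of neuronal markers ran against the group names, while the summed level of otic progenitor markers was higher in the proliferating libraries. The 10 genes of a cell division list were higher in the neuron libraries within both numbers, with summed levels of 2051 and 4734 CPM in the neuron libraries, against 257 and 668 CPM in the proliferating libraries. The 12 neuronal markers summed to 1473 and 1523 CPM in the neuron libraries and to 2495 and 2868 CPM in the proliferating libraries. Map2 held much of these sums, at 485 and 1018 CPM against 1064 and 1447 CPM. Of 7 tested neuronal markers, 6 were lower in the neuron library within both numbers, and Dcx took opposite signs. Rbfox3, not tested, was higher within both numbers, with 176 and 3 counts in the neuron libraries against 4 and 2 counts. The growth cone protein gene Gap43 had 2 and 0 counts in the neuron libraries and 0 and 3 counts in the proliferating libraries, too few to give a direction. Of 10 otic progenitor markers, 8 had any count, and their summed levels were 234 and 224 CPM in the neuron libraries and 390 and 501 CPM in the proliferating libraries, with Sox2 at 123 and 201 CPM in the neuron libraries and 342 and 458 CPM in the proliferating libraries, and with Pax8 and Isl1 at 0 counts in every library. Of 10 glial markers, 9 had any count, and their summed levels were 244 and 402 CPM in the neuron libraries and 882 and 444 CPM in the proliferating libraries, with Sox10 at 0 counts. Mesenchymal markers (4 of 6 detected) summed to 47.7 to 104 CPM in the 4 libraries. Endothelial markers (2 of 6 detected, with Pecam1 at 0 counts) summed to 1.60 to 16.6 CPM, and immune markers (3 of 5 detected, with Ptprc at 1 count in all) to 0 to 9.76 CPM. In edgeR with the group alone, 0 genes of each of these lists were called. With the library number as a term, 5 division genes were called higher and 1 neuronal marker, Stmn2, lower in the neuron libraries, and of the glial markers 1 was called higher and 2 lower. The directions below rest on the group labels as given. An exchange of libraries between the groups was not tested, and would turn every fold change and ratio. The part of any of these cell types in the results below was not tested, and in bulk RNA fewer cells of a type cannot be told apart from less RNA per cell.

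No guidance gene passed the test between groups. Of the 54 genes, 36 had enough counts to be tested, and edgeR's quasi-likelihood test called 0 of them higher and 0 lower in the neuron libraries at an adjusted p of 0.05, with a smallest adjusted p of 0.9996. The same fit called 0 of all 9009 tested genes, a background of 0%, and 97 genes (1.08%) had an unadjusted p under 0.05, of which 0 were guidance genes. DESeq2, run on 54 guidance genes, also called 0 and had 2 at an unadjusted p under 0.05, against 190 of 23761 genes (0.800%). Those 23761 are all genes with at least 1 count, while the 54 had at least 10 counts, so the 2 sets are unlike. When the library number was added to the model as a term, edgeR called 87 of 9009 genes (0.966%) and again 0 of the 36, of which 7 had an unadjusted p under 0.05, against 894 of 9009 genes (9.92%). Fold changes below are therefore given as values with their standard errors, not as changes. The median log2 fold change of the 36 genes, neuron over proliferating, was -0.51, and that of all tested genes was -0.03. Below the median of all genes lay 27 of the 36 (75.0%), against 50.0% of all tested genes. This depended on single libraries. Without proliferating 1 the median of 39 tested guidance genes lay 0.69 above that of all genes and 11 of them lay below it. Without neuron 2 the median of the guidance genes lay 0.13 below that of all genes, and 25 of 45 tested guidance genes lay below it. Without neuron 1 their median lay 1.32 below that of all genes, and without proliferating 2 it lay 1.33 below.

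**Figure D1:**
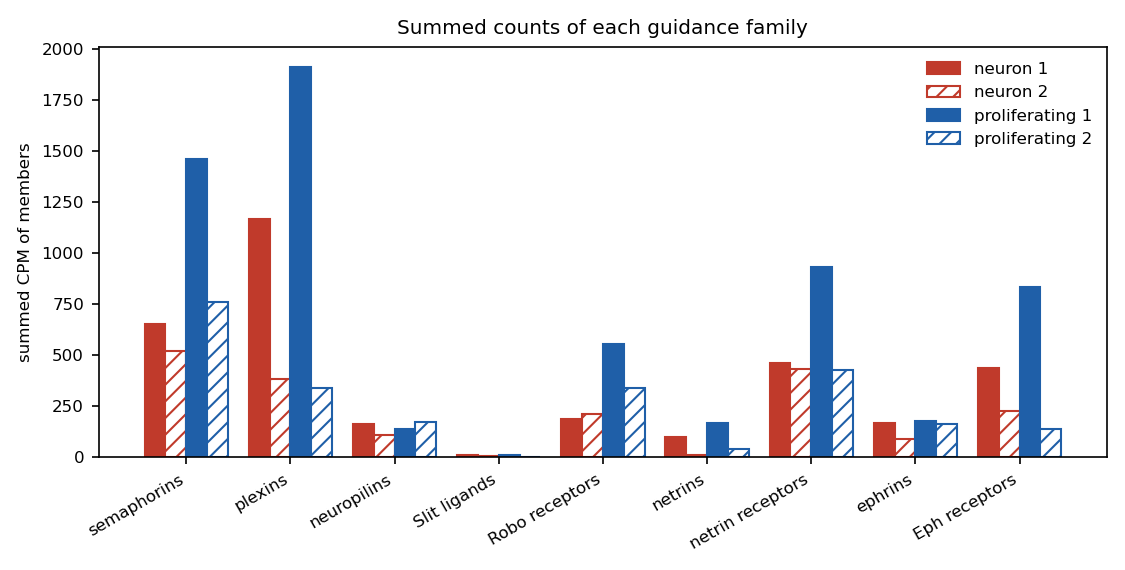
Summed CPM of the members of each family (vertical axis) in the 4 libraries, with neuron libraries in red and proliferating libraries in blue, filled for libraries numbered 1 and hatched for those numbered 2. Bars are single libraries without error bars, and the plexin sum shows the widest gap between numbers as a difference in CPM, at 1165 and 386 CPM in the neuron libraries and 1913 and 339 CPM in the proliferating libraries.

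All 54 genes together held 3343 and 1990 CPM in the neuron libraries and 6188 and 2380 CPM in the proliferating libraries. Their sum was lower in the neuron library within both numbers, by log2 ratios of -0.89 in number 1 and -0.26 in number 2. At least 10 counts were found for 53 and 18 of the genes in the neuron libraries and for 31 and 22 in the proliferating libraries. A count of 0 allowed a level of up to 0.798 and 6.22 CPM in the neuron libraries and up to 9.76 and 5.50 CPM in the proliferating libraries, taking a floor of 3 counts per library and counting error alone. Per kilobase of transcript, Neo1 had the highest level in neuron 2 and proliferating 1, at 24.4 and 60.7 CPM per kilobase, Plxnb2 in neuron 1 at 39.8 and Dcc in proliferating 2 at 30.2. Sema6a, Dcc, Neo1 and Plxnb2, with a few others, made up much of the signal, as the 5 most counted members held 35.9% and 50.4% of the counts of all members in the neuron libraries and 42.1% and 57.8% in the proliferating libraries.

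**Figure D2:**
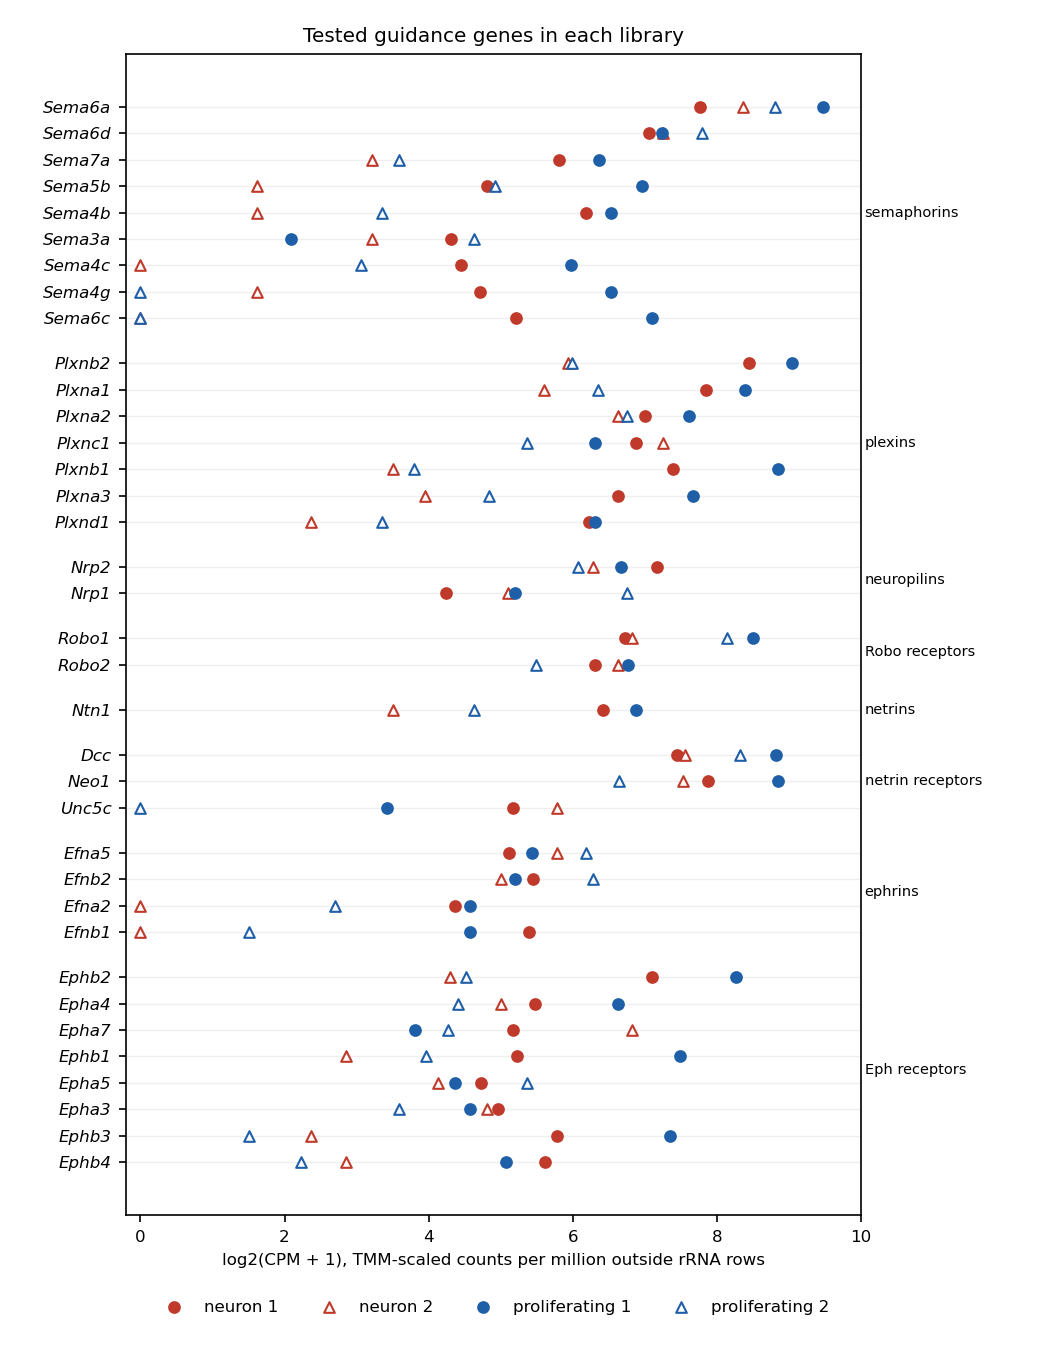
Log2(CPM + 1) of each tested guidance gene (horizontal axis) in the 4 libraries, grouped by family, with neuron libraries in red and proliferating libraries in blue, filled circles for libraries numbered 1 and open triangles for those numbered 2. Many genes separate by number before they separate by group, such as Plxnb1 at 166 and 10.4 CPM in the neuron libraries and 462 and 12.8 CPM in the proliferating libraries.

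Among the semaphorins, 12 of 20 gene rows reached the minimum and 9 were tested. All 9 fitted log2 fold changes were negative, with a median of -1.08. Within both numbers, 6 of the 9 were lower in the neuron library, as were 27.0% of all tested genes. Sema6a, a transmembrane semaphorin that binds class A plexins and was the most counted member in 3 of the 4 libraries, had 812 and 159 counts in the neuron libraries and 218 and 244 counts in the proliferating libraries, or 216 and 330 CPM against 709 and 447 CPM. Both neuron libraries lay below both proliferating libraries, and the log2 fold change was -1.08 (SE 1.03, 2 libraries per group). Its log2 ratio was -1.71 within number 1 (95% exact counting interval -1.93 to -1.49) and -0.44 within number 2 (-0.74 to -0.15). Intervals of this kind come from the counts of 1 library in each group and cover counting error alone. Sema6d, a ligand of plexin A1, had 132 and 151 CPM in the neuron libraries and 150 and 222 CPM in the proliferating libraries, and its groups overlapped.

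Sema5b, a transmembrane semaphorin with thrombospondin repeats, had 102 and 1 counts in the neuron libraries and 38 and 16 counts in the proliferating libraries. These were 27.1 and 2.07 CPM against 124 and 29.3 CPM, so the groups did not overlap. The log2 fold change was -2.27 (SE 1.29), the most negative among the tested members, and the log2 ratios within numbers 1 and 2 were -2.12 and -3.08. Sema7a, a lipid-anchored semaphorin that binds plexin C1, had 55.1 and 8.29 CPM in the neuron libraries and 81.3 and 11.0 CPM in the proliferating libraries. Here each number sat at its own level, with little between the groups. Sema4c, a ligand of plexin B2, had 20.8 CPM in neuron 1 and 0 counts in neuron 2, against 61.8 and 7.34 CPM in the proliferating libraries. The secreted Sema3a, the classic repellent that acts through Nrp1, went opposite ways, at 18.9 and 8.29 CPM in the neuron libraries and 3.25 and 23.8 CPM in the proliferating libraries, and proliferating 1 held 1 count of it. Sema4g also went opposite ways, with 95 and 1 counts in the neuron libraries and 28 and 0 counts in the proliferating libraries, so its direction in number 2 rests on 1 count. Apart from Sema3a, Sema3f was the only class 3 gene of 7 to reach the minimum, with 35 and 0 counts in the neuron libraries and 1 in each proliferating library. Sema4d, a ligand of plexin B1 that was not tested, was higher in both neuron libraries, with 105 and 6 counts against 2 and 5 counts in the proliferating libraries, or 27.9 and 12.4 CPM against 6.51 and 9.17 CPM. Within number 2 the counting interval of its log2 ratio was -1.54 to 2.49, so no difference was detectable there at this depth.

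The receptors of semaphorins were among the strongest members. Of 10 plexin rows, 8 reached the minimum and 7 were tested. Of these 7, 6 were lower in the neuron library within both numbers, as were 27.0% of all tested genes. Within number 2 the counting intervals of Plxnb2, Plxna2, Plxna3, Plxnb1 and Plxnd1 included 0. The summed plexin level in number 2 was slightly higher in the neuron library, at 386 against 339 CPM. Plxnb2, the plexin B receptor of several class 4 semaphorins, had 348 and 60.1 CPM in the neuron libraries and 527 and 62.4 CPM in the proliferating libraries. Its log2 ratio within number 2 was -0.05 (counting interval -0.82 to 0.71), so no difference was detectable there at this depth. Plxna1 had 230 and 47.7 CPM in the neuron libraries and 335 and 80.7 CPM in the proliferating libraries, with a log2 fold change of -0.56 (SE 1.11). Plxna2, a receptor of Sema6a, had 127 and 97.4 CPM in the neuron libraries and 195 and 106 CPM in the proliferating libraries, a log2 fold change of -0.42 (SE 0.95). For Plxna1 and Plxna2 the groups overlapped. Antisense genes overlap exons of Plxna1 and Plxnb1, so reads could be mixed there as well as at Sema4c and Ephb1, where non-coding genes lie on the other strand. Exons of Plxnc1, Nrp1 and Ntn3 overlap those of Gm48718 (115 bases), Mir1903 (80 bases) and Tbc1d24 (89 bases) on the same strand, where no strand setting separates the reads.

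Plxnc1, the receptor of Sema7a, was the plexin that stood the other way. It had 438 and 73 counts in the neuron libraries and 24 and 22 counts in the proliferating libraries, or 117 and 151 CPM against 78.1 and 40.3 CPM. The groups did not overlap, the log2 fold change was 1.18 (SE 0.98), and the log2 ratios were 0.57 (counting interval -0.01 to 1.24) within number 1 and 1.87 (1.20 to 2.67) within number 2. The neuropilins differed from each other in direction. Nrp1, the co-receptor of Sema3a, had 17.8 and 33.2 CPM in the neuron libraries and 35.8 and 106 CPM in the proliferating libraries, with a log2 fold change of -1.51 (SE 1.09) and no overlap. Nrp2, the co-receptor of Sema3f, had 143 and 76.7 CPM in the neuron libraries and 101 and 66.0 CPM in the proliferating libraries, with overlap and a log2 fold change of 0.41 (SE 0.97).

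The Slit ligands were close to absent in these counts. Slit2 had 0 counts in every library, Slit3 had 21 and 2 counts in the neuron libraries and 2 and 0 in the proliferating libraries, and Slit1 had 14 and 0 counts against 1 and 1. At this depth, levels under the floors above were not detectable. Their receptors were present. Robo1, the main Slit receptor of many axons (mm10 chromosome 16, bases 72308306 to 73046095 of the plus strand), had 392 and 54 counts in the neuron libraries and 111 and 154 counts in the proliferating libraries, or 104 and 112 CPM against 361 and 282 CPM. The libraries of each group lay close together and the groups did not overlap. The log2 fold change was -1.57 (SE 0.98), with ratios of -1.78 (counting interval -2.10 to -1.47) within number 1 and -1.32 (-1.81 to -0.88) within number 2. Robo2 had 78.5 and 97.4 CPM in the neuron libraries and 107 and 44.0 CPM in the proliferating libraries. Its ratios took opposite signs, at -0.44 (counting interval -0.97 to 0.11) within number 1 and 1.12 (0.41 to 1.92) within number 2. No direction was detectable in number 1 at this depth. Robo3, a divergent Robo needed for axons to cross the midline, had too few counts to be tested, with 15 and 1 counts in the neuron libraries and 27 and 7 counts in the proliferating libraries. As CPM these were 3.99 and 2.07 against 87.8 and 12.8, lower in the neuron library within both numbers, with counting intervals of the log2 ratio of -5.48 to -3.50 in number 1 and -8.12 to 0.33 in number 2.

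In the netrin system, the ligand Ntn1 had 84.9 and 10.4 CPM in the neuron libraries and 117 and 23.8 CPM in the proliferating libraries, with a log2 fold change of -0.52 (SE 1.20) and overlap. Ntn3 and Ntn4, not tested, had 42 and 0 and 16 and 1 counts in the neuron libraries, against 9 and 3 and 7 and 5 counts in the proliferating libraries. The attractive netrin receptor Dcc (chromosome 18, 71253634 to 72351069) had 649 and 90 counts in the neuron libraries and 138 and 173 counts in the proliferating libraries, or 173 and 187 CPM against 449 and 317 CPM. The neuron libraries were nearly equal and lay below both proliferating libraries. The log2 fold change was -1.09 (SE 0.99), with ratios of -1.37 and -0.76 within numbers 1 and 2. Neo1, or neogenin, a relative of Dcc that binds netrins and repulsive guidance molecules, had 233 and 184 CPM in the neuron libraries and 459 and 99.0 CPM in the proliferating libraries. Its ratios took opposite signs, at -0.97 (counting interval -1.23 to -0.71) within number 1 and 0.89 (0.39 to 1.41) within number 2.

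Unc5c, the receptor that turns netrin attraction into repulsion (chromosome 3, 141465216 to 141834924), went the other way from Dcc. It had 131 and 26 counts in the neuron libraries and 3 and 0 counts in the proliferating libraries, or 34.9 and 53.9 CPM against 9.76 and 0 CPM. The log2 fold change was 3.34 (SE 1.62), the largest among the tested members. Within number 1 the counting interval of the log2 ratio was 0.26 to 4.13, and within number 2 the level in the neuron library was at least 9.80-fold higher, taking the floor of 3 counts in proliferating 2 and leaving aside the counting error of the 26 counts in neuron 2. The counting interval of the log2 ratio, which covers both, began at 2.89. With the library number as a term its adjusted p in edgeR was 0.0575, which missed the threshold. The antisense gene Gm15688 overlaps 118 bases of its exons, and reads of the pair could be mixed since the strand setting of the counting is not given in the sources used here, as for the genes named above. The other Unc5 genes had 10 to 74 counts in all and were not tested.

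Among the ephrins, all 8 rows reached the minimum and 4 were tested, with overlap between the groups for each of the 4. Efna5, a lipid-anchored ligand of EphA receptors, had 33.8 and 53.9 CPM in the neuron libraries and 42.3 and 71.5 CPM in the proliferating libraries, a log2 fold change of -0.39 (SE 1.02). Efnb2, a transmembrane ephrin, had 42.6 and 31.1 CPM in the neuron libraries and 35.8 and 77.0 CPM in the proliferating libraries. Its ratios took opposite signs, at 0.24 (counting interval -0.63 to 1.28) within number 1 and -1.27 (-2.27 to -0.43) within number 2. No direction was detectable in number 1 at this depth. Efna2 had 74 and 0 counts in the neuron libraries and 7 and 3 counts in the proliferating libraries.

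Of 14 Eph receptor rows, 10 reached the minimum and 8 were tested. Epha7, a receptor of A-type ephrins (chromosome 4, 28813131 to 28967499), had 131 and 54 counts in the neuron libraries and 4 and 10 counts in the proliferating libraries, or 34.9 and 112 CPM against 13.0 and 18.3 CPM. The groups did not overlap. The log2 fold change was 2.19 (SE 1.14), with counting intervals of the log2 ratio of 0.03 to 3.32 within number 1 and 1.62 to 3.75 within number 2. Epha3 also did not overlap, at 30.1 and 26.9 CPM in the neuron libraries and 22.8 and 11.0 CPM in the proliferating libraries, but both counting intervals included 0. Epha4, which takes both A-type and B-type ephrins, had 43.4 and 31.1 CPM in the neuron libraries and 97.6 and 20.2 CPM in the proliferating libraries. Its ratio was -1.14 (counting interval -1.74 to -0.56) within number 1 and 0.59 (-0.60 to 1.89) within number 2. No direction was detectable in number 2 at this depth. Ephb2 had 136 and 18.7 CPM in the neuron libraries and 306 and 22.0 CPM in the proliferating libraries, a log2 fold change of -1.05 (SE 1.28). Ephb1 had 36.5 and 6.22 CPM in the neuron libraries and 179 and 14.7 CPM in the proliferating libraries, with ratios of -2.25 (counting interval -2.76 to -1.82) within number 1 and -1.06 (-3.79 to 0.82) within number 2. Both receptors were lower in the neuron library of each number, but within number 2 both counting intervals included 0. That of Ephb2 was -1.66 to 1.13, on 9 counts in the neuron library and 12 in the proliferating library. The numbers differed so much that the groups overlapped. The summed level of EphA over that of EphB genes, per kilobase, was 0.580 and 4.80 in the neuron libraries and 0.212 and 2.04 in the proliferating libraries. It was higher in the neuron library of each number, and higher in the libraries numbered 2 of each group. The median GC content was 43.8% over the EphA genes and 56.2% over the EphB genes, and its part in this ratio was not tested.

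**Figure D3:**
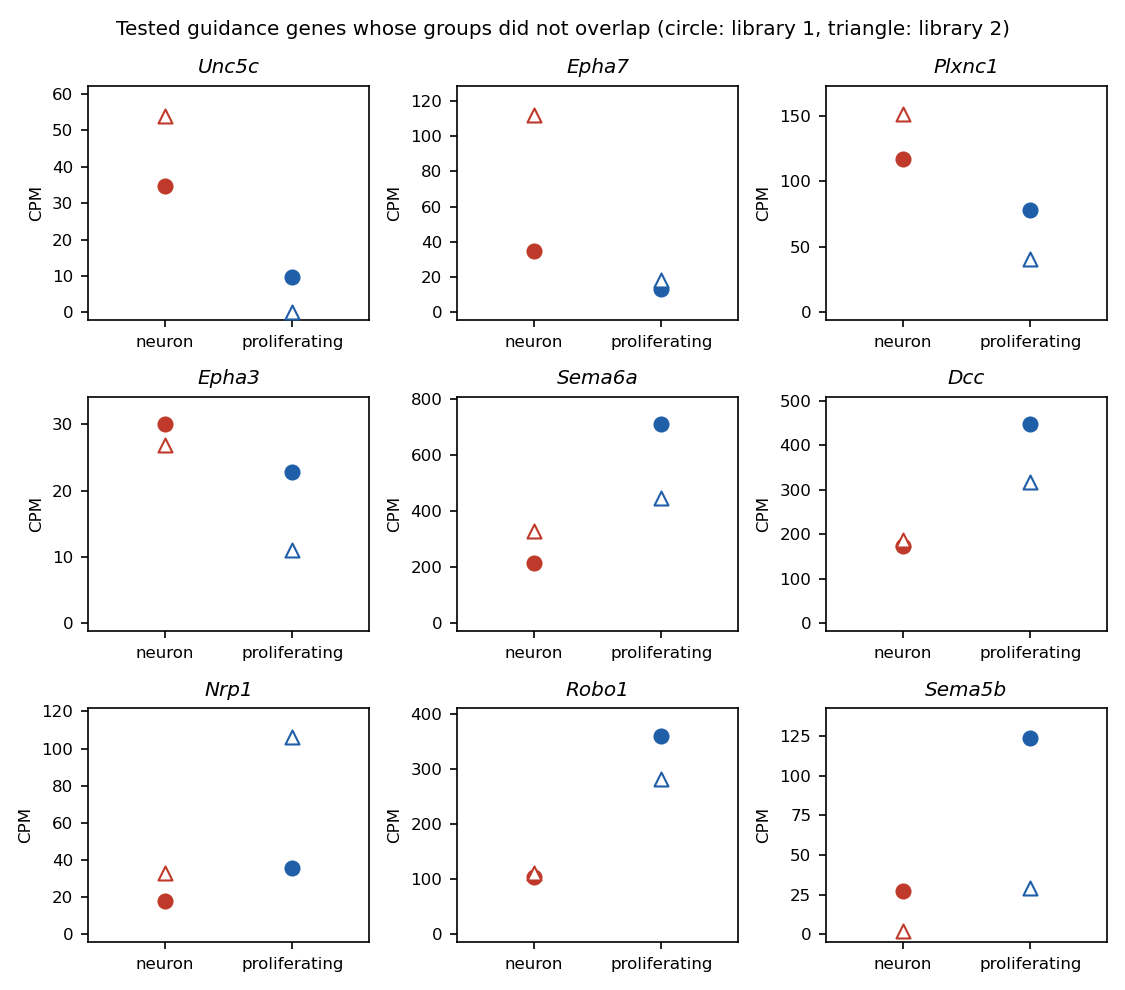
CPM of the 9 tested guidance genes whose groups did not overlap, neuron libraries on the left and proliferating libraries on the right of each panel, with circles for libraries numbered 1, triangles for libraries numbered 2 and axes that start near 0. Unc5c, Epha7, Plxnc1 and Epha3 were above and Sema6a, Dcc, Nrp1, Robo1 and Sema5b below the proliferating libraries.

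The groups therefore did not overlap for 4 tested genes with the neuron libraries above (11.1%, against 9.41% of all tested genes) and for 5 with them below (13.9%, against 8.50%). The first share was near the background. Within both numbers, 6 of the 36 genes were higher in the neuron library (16.7%, against 27.4% of all tested genes) and 20 were lower (55.6%, against 27.0%). After a correction for GC content, chosen after the data were seen, 14 of the 36 were lower within both numbers relative to all genes, against 25.4% of all tested genes. A log2 ratio of at least 1 within both numbers was found for 2 genes that were higher, Unc5c and Epha7 (5.56%, against 5.05%), and for 4 that were lower, Robo1, Ephb1, Sema5b and Sema4c (11.1%, against 3.30%). For Sema4c the ratio in number 2 rests on 0 and 4 counts. No test compared these shares with those of all genes.

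**Figure D4:**
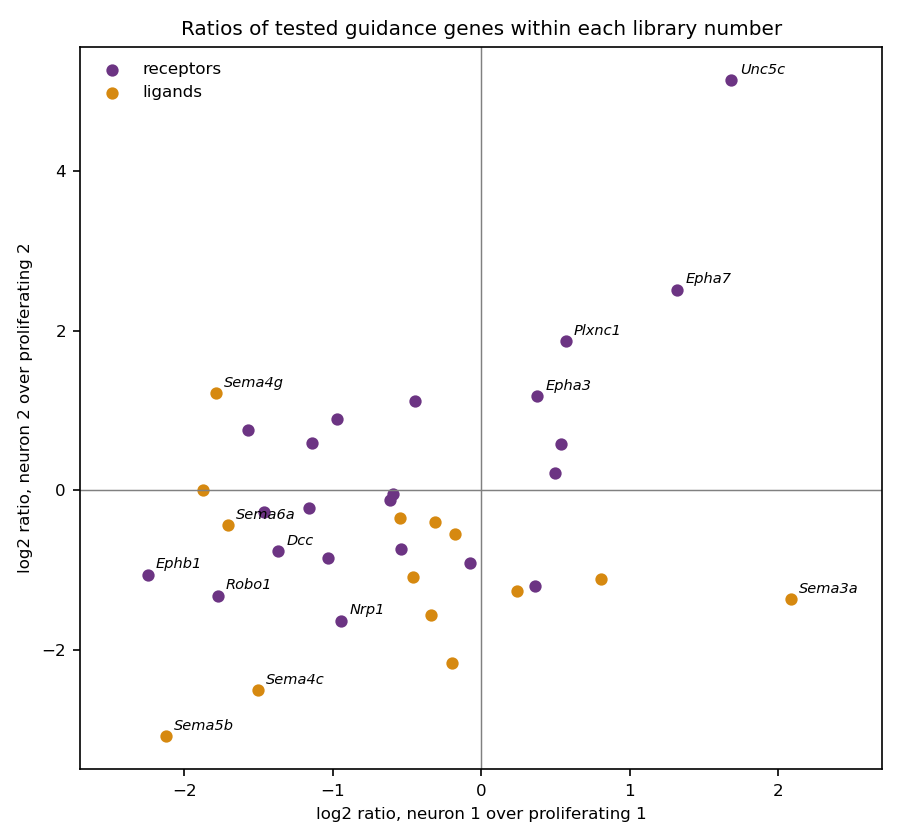
Log2 ratio of neuron over proliferating within number 1 (horizontal axis) and within number 2 (vertical axis) for the 36 tested guidance genes, receptors in purple and ligands in orange, with a prior count of 2 and 1 library per group in each ratio. The lower left holds 20 genes and the upper right holds 6, all receptors, as are 22 of the 36 genes. Of these 6, Ephb4, Epha3 and Nrp2 have a counting interval within number 2 that includes 0, and Ephb4 rests there on 3 and 2 counts. The height of Unc5c depends on the prior count because proliferating 2 had 0 counts.

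GC content of the transcript separated the members by library number. The 18 tested genes with the higher GC content, 52.7% to 63.5%, were all lower in the libraries numbered 2 than in those numbered 1, with a median difference of mean log2 CPM of -3.06. Of the 18 with the lower GC content, 40.1% to 51.1%, 11 were lower in the libraries numbered 2, with a median difference of -0.16. Across the 36 genes the Spearman correlation of GC content with that difference was -0.76, against -0.79 across the 8655 of all tested genes with a GC value. These describe genes measured in the same 4 libraries and carry no test. The GC-rich Sema6c, at 63.5%, had 136 counts in neuron 1 and 42 in proliferating 1 and 0 in both libraries numbered 2. Plexin D1, at 60.8%, had 278 and 2 counts in the neuron libraries and 24 and 5 in the proliferating libraries. The log2 ratios between groups were less tied to GC content, with correlations of -0.30 within number 1 and -0.27 within number 2. Across all tested genes with a GC value, these correlations were -0.30 and -0.43. The correlation of GC content with the log2 fold change was -0.30 across the 36 genes and -0.43 across all tested genes. Median GC content was 51.9% for the 36 genes and 49.3% for all tested genes. Of the 9 genes whose groups did not overlap, all but Sema5b had a GC content under 52.7%. The part of GC content in the group differences was not tested beyond the correction given above.

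**Figure D5:**
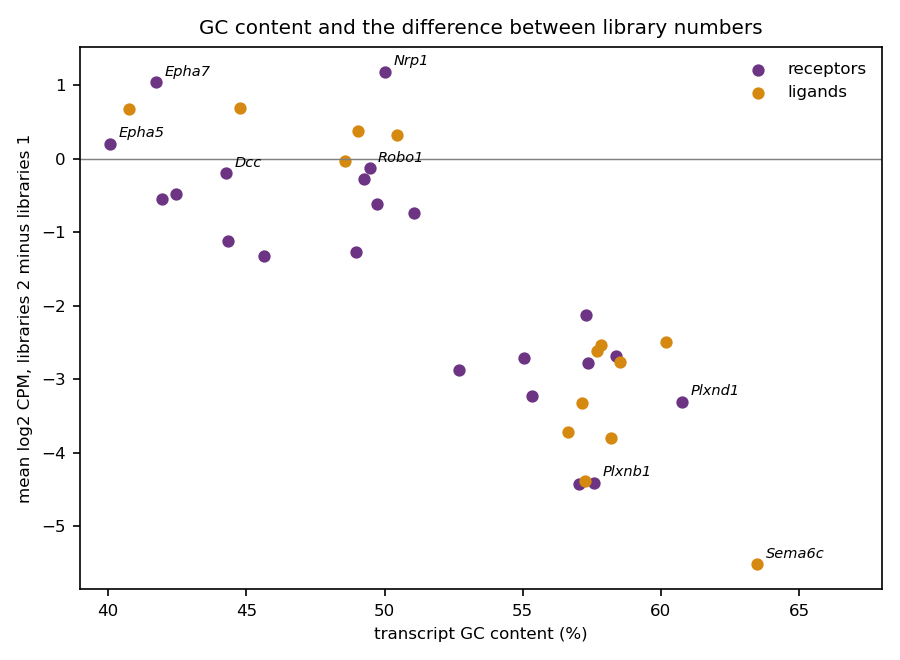
Transcript GC content in percent (horizontal axis) against the mean log2 CPM of the 2 libraries numbered 2 minus that of the 2 libraries numbered 1 (vertical axis) for the 36 tested guidance genes, receptors in purple and ligands in orange. Every gene at 52.7% GC or above lies below 0 and every gene at 51.1% or under lies within 2 log2 units of 0.

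A start site of each of 4 genes is shown because these genes had a log2 ratio of at least 1 within both numbers and no overlap between groups. The series is titled after CHD7 at insulators, so the windows were searched, on both strands, for AGGGGGC, part of the motif of the insulator protein CTCF, and for CAGCTG and CAGATG, 2 E-boxes of the kind that proneural factors bind. Capitals mark a match. Each window runs from 250 bases before to 50 bases after a start in RefSeq on GRCm38.p6, the assembly of mm10, and the first of 2 windows listed for Epha7 is shown. For Robo1 the 1 window listed lies inside the gene, downstream of its first base given above, 72308306, so the start at that base was not searched. The same holds for Unc5c, whose 1 window starts at 141465314, downstream of its first base given above, 141465216.
Unc5c, chr3:141465314-141465613, plus strand: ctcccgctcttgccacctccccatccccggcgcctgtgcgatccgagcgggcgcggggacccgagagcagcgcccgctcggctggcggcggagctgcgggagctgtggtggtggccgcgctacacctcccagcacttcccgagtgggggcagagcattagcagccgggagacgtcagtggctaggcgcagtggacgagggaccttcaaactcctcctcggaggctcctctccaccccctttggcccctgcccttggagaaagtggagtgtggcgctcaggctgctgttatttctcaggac
Epha7, chr4:28812881-28813180, plus strand: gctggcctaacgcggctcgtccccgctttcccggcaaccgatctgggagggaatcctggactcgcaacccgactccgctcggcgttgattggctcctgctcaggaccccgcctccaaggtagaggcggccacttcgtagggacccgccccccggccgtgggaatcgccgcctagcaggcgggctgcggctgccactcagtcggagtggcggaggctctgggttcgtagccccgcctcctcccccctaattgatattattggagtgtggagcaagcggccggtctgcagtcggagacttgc
Robo1, chr16:72662899-72663198, plus strand: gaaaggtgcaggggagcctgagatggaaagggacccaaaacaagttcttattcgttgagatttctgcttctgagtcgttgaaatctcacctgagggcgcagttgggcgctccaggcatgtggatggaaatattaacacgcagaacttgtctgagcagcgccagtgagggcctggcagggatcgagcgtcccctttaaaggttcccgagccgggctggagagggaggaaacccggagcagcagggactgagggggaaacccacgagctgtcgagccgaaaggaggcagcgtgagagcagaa
Sema5b, chr16:35541112-35541411, plus strand: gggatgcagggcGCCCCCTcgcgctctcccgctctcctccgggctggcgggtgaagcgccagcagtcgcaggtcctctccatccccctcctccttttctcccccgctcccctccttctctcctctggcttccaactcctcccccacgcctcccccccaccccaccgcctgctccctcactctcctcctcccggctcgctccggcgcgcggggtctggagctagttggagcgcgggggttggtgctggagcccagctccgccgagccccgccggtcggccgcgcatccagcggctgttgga
The Sema5b window held 1 match, the reverse strand of AGGGGGC, starting at base 13, and the windows of Unc5c, Epha7 and Robo1 held none. Their GC contents were 68.3% for Unc5c, 67.0% for Epha7, 57.0% for Robo1 and 73.0% for Sema5b. Of all 32851 windows of this length, 10.6% held AGGGGGC, 16.3% held CAGCTG and 17.2% held CAGATG. Of 59 windows that matched 46 of the 54 guidance genes, 23.7% held AGGGGGC, 11.9% held CAGCTG and 1.69% held CAGATG. A match is a description of the letters and not evidence of binding.

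The genes that act around these receptors were read from 2 further lists. Of 54 genes that carry guidance signals inside the cell, 43 were tested, 0 were called in either direction and 1 had an unadjusted p under 0.05, with a median log2 fold change of -0.38. That 1 gene is 2.33% of the 43, against 1.08% of all tested genes. Within both numbers 18 of them (41.9%, against 27.0%) were lower and 6 (14.0%, against 27.4%) were higher in the neuron libraries. The highest by mean log2 CPM were Dpysl2, the collapsin response mediator that semaphorin signals act on, with 625 and 441 CPM in the neuron libraries and 807 and 1018 CPM in the proliferating libraries, and the actin-severing cofilin Cfl1, with 795 and 301 CPM against 752 and 897 CPM. Gsk3b, a kinase that regulates growth cone microtubules, had 436 and 721 CPM in the neuron libraries and 755 and 602 CPM in the proliferating libraries. Dpysl2 did not overlap between groups, and Cfl1 and Gsk3b did.

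Of 30 other guidance genes, among them adhesion molecules and morphogen receptors, 26 were tested, 0 were called and 1 had an unadjusted p under 0.05, with a median log2 fold change of 0.01. Within both numbers 8 of them (30.8%) were lower and 5 (19.2%) were higher in the neuron libraries. The highest by mean log2 CPM were the Wnt receptor gene Fzd3, with 328 and 742 CPM in the neuron libraries and 452 and 359 CPM in the proliferating libraries, the dystroglycan gene Dag1, with 230 and 112 CPM against 358 and 284 CPM, and the protease gene Adam10, with 108 and 383 CPM against 130 and 257 CPM. The gene with the low unadjusted p was Rgmb, a ligand of neogenin (chromosome 17, 15803188 to 15831039). It had 124 and 19 counts in the neuron libraries and 73 and 90 counts in the proliferating libraries, or 33.0 and 39.4 CPM against 237 and 165 CPM. The neuron libraries lay close together and far below both proliferating libraries, with a log2 fold change of -2.48 (SE 0.99, unadjusted p = 0.0278 and adjusted p = 0.9996 in edgeR) and ratios of -2.79 and -2.02 within numbers 1 and 2. In the model with the library number as a term, where 87 genes were called, Rgmb was one of them and fell by 2.48 log2 units, with an SE of 0.62 and an edgeR adjusted p of 0.0204. That model left 1 residual degree of freedom.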

How the data were processed

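RNA of 4 iMOP libraries was analysed, 2 per group. Per the labels' protocols, DNase-treated total RNA was depleted of ribosomal RNA and made into stranded libraries. HISAT2, featureCounts, SAMtools and DESeq2 are named, with the mm10 build, per the submitters' processing notes; versions, annotation and strand setting are not given in the sources used here. The authors deposited raw counts per gene and RPKM values, which scale counts by gene length and by library totals that include ribosomal RNA. Gene lengths were recovered from the deposited counts and RPKM, with 1 length per gene in all libraries within a relative tolerance of 0.001 for 17709 of 17709 genes.

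Counts were tested with edgeR 4.0.16 in R 4.3.3 (quasi-likelihood, TMM, filterByExpr, group alone, Benjamini-Hochberg over 9009 genes), after 7 ribosomal RNA and rRNA-like rows were set aside from totals and tests. CPM used the TMM-scaled totals of the remaining counts, log2 ratios a prior count of 2, and counting intervals are exact binomial at 95%. Positions and transcript GC (longest coding transcript) came from GENCODE M21. The fits were tested on simulated data. Alternatives were DESeq2 1.42.0 and its size factors, library totals alone, ribosomal RNA rows kept, no filter, limma 3.58.1 on RPKM, library number as a block, each library left out and, added after the data were seen, a GC correction (spline, 5 degrees of freedom). Genes were named if called in a fit, among the 3 highest of a family or list, at a log2 ratio of at least 1 in both numbers, or among the 3 with the largest difference between numbers; Plxnc1, Epha3, Sema3f, Sema4d, Sema6c, Plxnb1 and Plxnd1 were added after their values were seen. The members and lists were chosen with earlier results of these data known.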

Additional observations from a re-analysis of the deposited data

How the results depend on the processing

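Under all 14 other settings, 0 guidance genes were called, which says little where 0 of all genes were called as well. With the replicate block, which is the library number as a term, 87 of all genes were called, and with the block and the GC correction 31; Rgmb was called in both (adjusted p = 0.0204 and 0.0364 in edgeR, up to 0.999988 in the other settings). The labels do not pair the libraries and name no batch. Their numbers were used as a term because deviations from the group means correlated at 0.74 between libraries of 1 number, across genes. With 2 libraries per group, pairing unlike numbers gives the same value with the opposite sign. This correlation comes from the same data as the block fit, which left 1 residual degree of freedom. What the numbers stand for was not tested. The median of the guidance genes relative to all genes was -0.48, ranged from -1.33 to 0.69 when 1 library was left out, and kept its sign in the other settings. The median of all genes moved from -0.03 to 0.81 on log2(RPKM + 0.1), 0.34 on log2(RPKM + 1) and 0.47 without a filter, so the following are relative to it. When 1 library was left out, Ephb2 ranged from -2.99 to 1.47, Epha4 from -1.46 to 0.52, Ephb1 from -3.77 to 0.23, Efna5 from -1.10 to 0.080, Efna2 from -1.15 to 0.64, Neo1 from -1.22 to 0.70, Ntn1 from -2.59 to 0.67, Plxnb2 from -2.17 to 1.36, Plxna1 from -1.99 to 0.43, Robo2 from -0.37 to 0.62, Sema7a from -2.29 to 1.20, Sema3a from -1.13 to 1.99, Sema4c from -6.78 to 0.24, Sema4g from -4.14 to 7.14, Sema6c from -7.77 to 7.55, Plxnb1 from -4.36 to 2.44, Plxnd1 from -3.16 to 1.77, Cfl1 from -1.30 to 0.037, Gsk3b from -0.54 to 0.24, Fzd3 from -0.21 to 1.02 and Adam10 from -0.76 to 1.15, with Sema4c, Sema4g and Sema6c set against libraries at or near 0. Other reversals were Robo2 at -0.15 without a filter, -0.075 and -0.19 on the RPKM scales with 0.1 and 1, -0.40 with the GC correction and -0.20 with it and the block; Neo1 at 0.076 on log2(RPKM + 0.1) and 0.036 with block and GC; Plxnb2 at 0.061 with GC and 0.073 with block and GC, Sema3a at -0.41 without a filter, -0.17 on log2(RPKM + 1) and -0.56 with block and GC, Epha3 at -0.031 on log2(RPKM + 1), Plxnd1 at 0.039 on library totals alone, 0.14 with GC and 0.094 with block and GC, Cfl1 at 0.047 on log2(RPKM + 1), Gsk3b at 0.027 and 0.25 on the RPKM scales, and, without a filter, with GC and with block and GC in this order, Fzd3 at -0.021, -0.56 and -0.42 and Adam10 at -0.12, -0.35 and -0.38. The causes were not tested. Of 38 named and tested genes, 16 kept their direction in every setting run (Unc5c, Epha7, Plxnc1, Robo1, Dcc, Sema6a, Sema6d, Sema5b, Nrp1, Nrp2, Plxna2, Efnb2, Rgmb, Dpysl2, Dag1 and Sox2), but not their size. When 1 library was left out, Unc5c ranged from 2.08 to 8.73, Epha7 from 1.22 to 2.96, Plxnc1 from 0.69 to 1.5, Sema5b from -4.89 to -1.28, Nrp1 from -2.47 to -0.59, Nrp2 from 0.028 to 0.88 and Efnb2 from -1.43 to -0.033, while Robo1 ranged from -1.82 to -1.37, and on log2(RPKM + 1) Unc5c was 0.096 and Epha7 0.27. Depth limits the libraries other than neuron 1 most, where 18 to 31 of the 54 genes had 10 counts or more.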
